A study of Mus musculus with 4 samples.

Results

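Tumor organoids are clumps of tumor epithelium that grow in a gel, here Matrigel, in a defined medium. Those described here came from intestinal polyps of ApcMin mice, which carry 1 mutant allele of Apc, the gene whose loss switches on Wnt signaling in these tumors, and were grown with EGF and noggin and without R-spondin. The series holds 4 arrays, and the 2 that served as controls were compared gene by gene. The control shRNA culture (labelled as the mock control) had received an empty lentiviral shRNA vector that also expresses GFP, was selected with 1 μg/ml puromycin from 24 hours after infection, and was harvested 9 days after infection. The untreated control culture received no virus, no puromycin and no drug, and served as control for the organoids harvested 4 days after 5-Aza-CdR, so its own day 4 is implied rather than stated. The other arrays were used only to place the values: the Dnmt1 knockdown culture had the same vector with an shRNA against Dnmt1, the same selection and the same day 9, and the 5-Aza-CdR culture had 1 μM of this DNA methylation inhibitor for the first 24 hours and was taken at day 4. With 1 array per culture, the spread between cultures is not known and nothing was tested. The virus, the puromycin, the days in culture, the culture itself and the array all changed together, and their parts in any difference cannot be told apart. Of 16446 genes with a named probe on the single-color Toray array, 13585 had a value on both control arrays.

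Some background helps to read the gene groups. The intestinal epithelium is renewed by Lgr5-positive stem cells at the crypt base, which depend on Wnt signaling and sit beside Paneth cells, the secretory cells that fill the crypt with defensins, lysozyme and phospholipase. The progeny of the stem cells become absorptive enterocytes, mucus-making goblet cells, hormone-making enteroendocrine cells and chemosensory tuft cells. Cells short of oxygen stabilize the hypoxia-inducible factor, which raises glycolytic enzymes and carbonic anhydrase IX. Cells short of amino acids, or under oxidative or electrophilic stress, raise the targets of ATF4 and NRF2, among them amino acid transporters and glutathione enzymes. Injured or inflamed gut epithelium, and some tumors, can express genes usually found in fetal, gastric or squamous epithelium.

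Values are the intensities that the authors deposited, each scaled so that the median detected probe of an array is 25. A gene was called higher or lower in the control shRNA culture when it differed at least 2-fold and reached an intensity of 25 on the brighter array. Of the 8502 genes that reached 25, 647 (7.61%) were higher and 2405 (28.3%) were lower in the control shRNA culture. The excess of lower calls went with a shift of the whole scale. A value was present for 81.2% of the probes on the control shRNA array and 89.0% on the untreated control array, each array was scaled on its own detected probes, and the median log2 ratio over the 8502 genes was -0.54. Relative to this median, 1194 genes (14.0%) lay 2-fold or more above and 1119 (13.2%) 2-fold or more below, so that higher genes made up 51.6% of the calls, where they made up 21.2% in the values as deposited. After normexp correction of the spot signals and quantile normalization over the 4 arrays, 569 genes were higher and 575 lower. For each list the count in the deposited values is followed by the count relative to the median gene. A member may have reached 25 only on the array where it was high, so list medians cover all members with a value on both arrays and are set beside -0.49, the median over all genes. Larger differences were counted in the deposited values, with 236 genes at least 4-fold higher and 606 lower, 93 and 199 at least 8-fold, and 36 and 73 at least 16-fold. Where several probes of a gene reached 25 (46 genes), their log2 ratios differed by an SD of 0.66. This is a spread between probes and not the error of a ratio between cultures, which 1 array per culture cannot give.

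**Figure D1:**
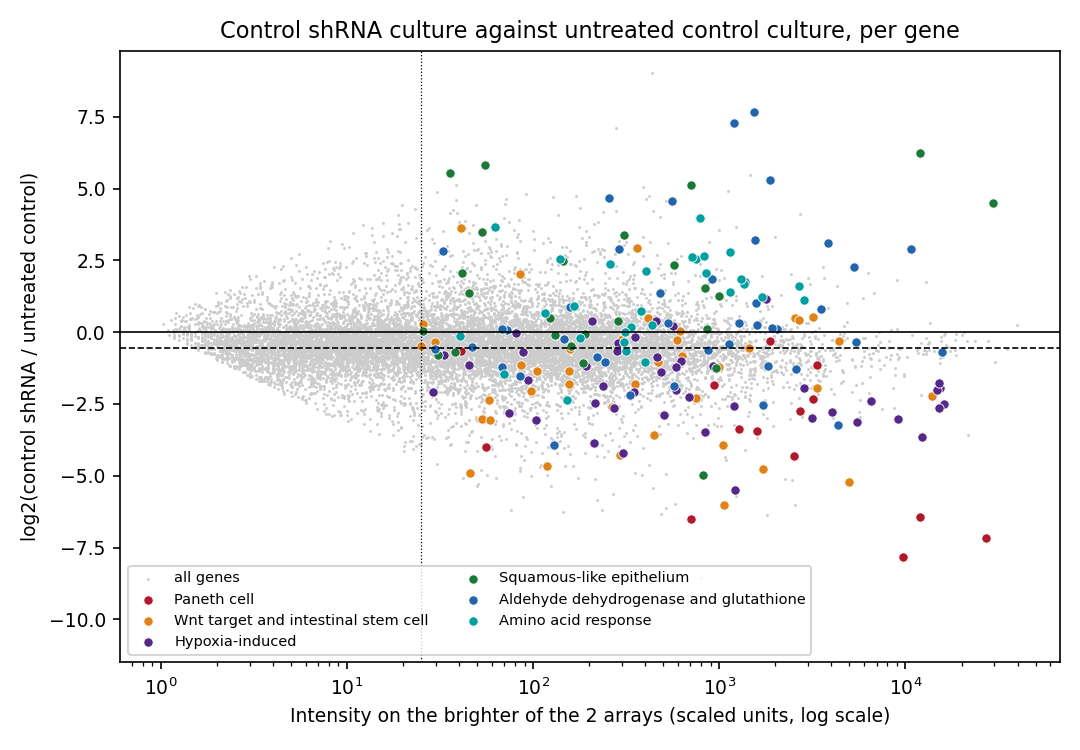
Log2 ratio of control shRNA over untreated control (y axis) against the intensity on the brighter array (x axis, log scale, scaled units), 1 point per gene, with 6 gene lists in color. The solid line is at 0, the dashed line at the median of -0.54, and the dotted line at the intensity of 25. Most Paneth cell genes lie below the lines, and several genes of glutathione metabolism and of squamous-like epithelium lie far above them.

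The epithelial markers Epcam and Cdh1 were bright in both cultures. Tacstd1 (Epcam), the epithelial adhesion molecule, gave an intensity of 3466 in the control shRNA culture and 7627 in the untreated control culture, and Cdh1, E-cadherin, had 968 and 1455. Of 10 epithelial identity genes at 25 or more, 0 were called higher and 3 lower (1 and 1 relative to the median gene), and the median of the list was -0.61, against -0.49 over all genes. The list had 12 members with a value on both arrays. The keratin Krt19 was dim in both cultures, with 3.11 and 6.32. Markers of other tissues were set beside the spots that carry no probe, whose 95th percentile was 3.37 on the control shRNA array and 2.42 on the untreated control array. Col1a1, a collagen of fibroblasts, had 3.01 and 6.93, the smooth muscle actin Acta2 had 2.27 and 12.1, the leukocyte antigen Ptprc had 2.41 and 3.38, and the endothelial genes Pecam1 and Cdh5 had no value in the control shRNA culture and 0.91 and 1.46 in the untreated control culture. Over the 20 mesenchymal genes with a value on both arrays the summed intensity was 234 in the control shRNA culture and 2903 in the untreated control culture, most of the untreated sum coming from Vim. This gene for the intermediate filament vimentin had 39.7 and 2544, a log2 ratio of -6.00. Next brightest were Fn1, fibronectin, with 43.2 and 145, and the transcription factor Twist1 with 60.7 and 83.1. Of 17 immune cell markers the sums were 488 and 559, and of 12 endothelial markers, among which Sox17 and Egfl7 carried most, they were 517 and 1446. Dnmt1, the target of the knockdown, had 126 in the control shRNA culture and 239 in the untreated control culture, a log2 ratio of -0.92, while it had 71.7 with Dnmt1 knockdown and 368 with 5-Aza-CdR. The part of other cell types in the results that follow was not tested. Col1a1, Acta2, Twist1, Ptprc, Pecam1 and Cdh5 were named because they define these cell types. Krt19 was named after its values were seen.

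Paneth cell genes had the lowest median log2 ratio of the 34 lists. Of 17 members at 25 or more, 14 were at least 2-fold lower, 12 of them also relative to the median gene, and 1 was higher. The list had a median log2 ratio of -2.75, and its summed intensity was 8859 in the control shRNA culture and 81072 in the untreated control culture. Defcr5 (Defa5), an alpha-defensin that kills bacteria, gave an intensity of 42.5 in the control shRNA culture and 9729 in the untreated control culture. It had 85.3 with Dnmt1 knockdown and 6232 with 5-Aza-CdR, so both vector-infected cultures were low and both others were high. Defcr3, a name now shared by near-identical defensin genes, had 188 and 27038 on the control arrays. A probe of this family can bind transcripts of several members, so the values stand for the family. Pla2g2a, a secreted phospholipase that kills bacteria and modifies polyp number in Min mice, had 138 in the control shRNA culture and 11975 in the untreated control culture, a log2 ratio of -6.44. Clps, pancreatic colipase, which mouse Paneth cells also make, had 7.80 and 701. Reg3g, an antibacterial lectin, had 149 and 1598. Mmp7, the protease that activates mouse alpha-defensins, had 2939.7 and 13836, and Ang4, an antimicrobial ribonuclease, had 403 and 2717, so neither was lost altogether. Sox9, a transcription factor required for Paneth cells, had 41.1 and 105, and Cd24a, which marks Paneth cells and other crypt cells, had 1517 and 1864. The exception was Nupr1, a stress-induced chromatin protein, with 716 and 115. It also stands in the hypoxia and amino acid lists. In RNA of whole cultures, fewer cells of a type and less RNA per cell cannot be told apart. Mmp7, Ang4 and Sox9 were named after their values were seen.

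Goblet and enteroendocrine cell genes were mostly lower too, while tuft cell genes were mixed. Of 20 goblet cell genes at 25 or more, 11 were at least 2-fold lower (8 relative to the median gene) and 2 higher (2), and the list median was -0.95. Spink4, a peptide of goblet and Paneth cells, gave an intensity of 125 in the control shRNA culture and 2515 in the untreated control culture. Foxa3, a transcription factor of goblet cells, had 38.8 and 279, but its direction turned when the local background was subtracted. Muc2, the main gel-forming mucin, was dim in both cultures, with 46.0 and 75.7, and its log2 ratio of -0.72 lay close to that of the median gene. Klf4, which drives goblet cell differentiation and cell cycle exit, went the other way, with 878 in the control shRNA culture and 101 in the untreated control culture. Of 9 enteroendocrine genes, 7 were at least 2-fold lower, also relative to the median gene, and 0 were higher, with a list median of -1.48. Relative to all genes, the goblet and enteroendocrine medians were -0.46 and -0.99. With the local background subtracted they shrank to -0.07 and -0.13. Neurog3, the transcription factor that founds this lineage, had 30.4 and 164. The hormone genes Sct (secretin) and Nts (neurotensin) had 42.2 and 253, and 31.4 and 220. Ghrl (ghrelin) had 6.98 and 92.4, and Tac1 was at the level of spots without a probe in the control shRNA culture and at 56.8 in the untreated control culture, at least 16.9-fold apart. Of tuft cell genes only 6 reached 25, with 3 higher and 1 lower (3 and 0 relative to the median gene), while the median over the 15 members with values was -0.81. The highest was Ptgds2 (Hpgds), the prostaglandin D synthase of tuft cells, with 79.2 and 6.73, while the tuft cell kinase gene Dclk1 and Trpm5 did not reach 25. Of the 3 higher genes, Ptgds2 and Chat reached 25 only on the control shRNA array. Ptgs1, the other, turned direction when the local background was subtracted. Dclk1 and Trpm5 were named because they define the cell type.

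**Figure D2:**
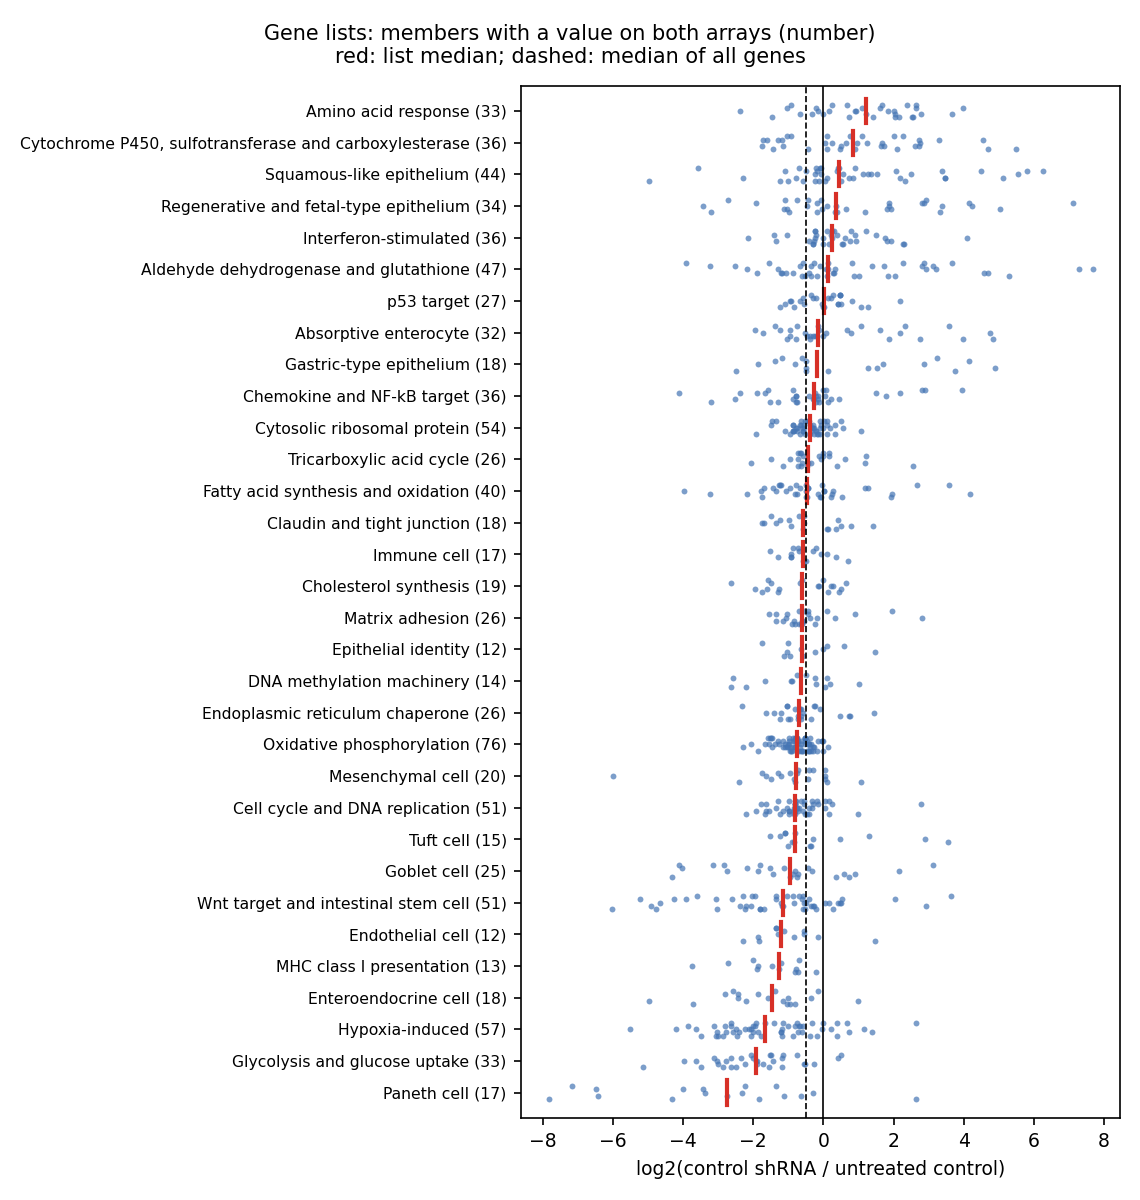
Log2 ratio of control shRNA over untreated control (x axis) for each member with a value on both arrays of 32 gene lists (rows, number of such members in brackets), with the list median as a red bar. The dashed line is the median of all genes at -0.49; the Paneth cell, glycolysis and hypoxia lists have the lowest medians, and the amino acid response and cytochrome P450 lists the highest.

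Wnt targets and stem cell genes split. Of 42 members at 25 or more, 24 were at least 2-fold lower (19 relative to the median gene) and 3 higher (6), and the list median was -1.14. Relative to all genes this median was -0.65, and it shrank to -0.15 with the local background subtracted. Wif1, a secreted protein that binds Wnt ligands, gave an intensity of 16.3 in the control shRNA culture and 1062 in the untreated control culture. Nkd1, which blocks Dishevelled, had 133 and 4977.5, and 5730593N15Rik (Notum), a secreted enzyme that removes the lipid from Wnt ligands, had 63.0 and 1707. Both vector-infected cultures were low for these, since Notum had 25.4 with Dnmt1 knockdown and 1343 with 5-Aza-CdR. Lgr5, the R-spondin receptor that marks crypt stem cells, had 15.2 in the control shRNA culture and 292 in the untreated control culture, a log2 ratio of -4.27, and Lef1, a transcription factor of the Wnt pathway, lay at the level of spots without a probe in the control shRNA culture and at 45.8 in the untreated control culture, at least 13.6-fold apart. Tnfrsf19 (Troy), a receptor of crypt stem cells, had 68.6 and 1045. Other members of the pathway differed far less. Ascl2, the transcription factor that sets stem cell fate, had 357 and 634, and Olfm4, a stem cell marker best known from human crypts, had 105 and 157, with log2 ratios of -0.83 and -0.58. Axin2, a widely used Wnt target, was dim with 5.52 and 8.50 and could not be judged. Myc and Ccnd2, growth genes that Wnt signaling also drives, had 412 and 293, and 2541 and 1814. Cd44, a surface receptor, had 84.6 and 20.7, and Plaur, the urokinase receptor, 362 and 47.5. Bmi1, a Polycomb protein, had 41.1 and 3.30. Apc itself was dim, with 7.40 and 12.75. Tnfrsf19, Myc, Ccnd2, Cd44, Plaur and Bmi1 were named after their values were seen.

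Genes that hypoxia induces were lower in the control shRNA culture. Of 50 members at 25 or more, 34 were at least 2-fold lower (28 relative to the median gene) and 3 higher (4), and the list had a median of -1.68. Car9, the membrane carbonic anhydrase IX, gave an intensity of 26.6 in the control shRNA culture and 1210.4 in the untreated control culture. It had 27.4 with Dnmt1 knockdown and 213 with 5-Aza-CdR, so the untreated control culture was the highest of the 4. Ankrd37, an ankyrin repeat protein, had 16.5 and 303, and the glycoprotein hormone Stc1 had 14.6 and 214. Egln3, a prolyl hydroxylase that limits the hypoxia response, had 201 and 1201.5. Some classic targets did not follow. Vegfa, the vascular growth factor, had 54.5 and 88.7, Ddit4, an mTOR inhibitor, had 308 and 310.3, and Hmox1, heme oxygenase, had 483 and 186. Of the 50 members, 17 are also in the glycolysis list. The other 33 held 17 lower and 3 higher genes, and the list without its glycolysis members had a median of -0.88 over 39 genes with a value on both arrays, against -0.49 over all genes. Egln3, Vegfa, Ddit4 and Hmox1 were named after their values were seen.

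Glycolysis was lower nearly throughout. Of 28 genes of glycolysis and glucose uptake, 25 were at least 2-fold lower in the control shRNA culture, 20 of them also relative to the median gene, and 0 were higher (1 relative to it), with a list median of -1.93. Slc16a3, the transporter that exports lactate, gave an intensity of 69.0 in the control shRNA culture and 2445 in the untreated control culture, a log2 ratio of -5.15. The enzymes followed along the whole path: Pfkl, phosphofructokinase of the liver type, had 74.6 and 839, Tpi1 had 1112 and 9105, Gapdh had 69.4 and 506, Pgk1 had 2858 and 16081, Eno1 had 975 and 12219, and Pkm2 (Pkm), pyruvate kinase, had 630.5 and 5494. Ldha, lactate dehydrogenase, had 3998 and 15248. Slc2a1, the main glucose transporter, had 146 and 690.4. Slc16a1, another lactate transporter, was the only member at 25 or more with a log2 ratio above 0, at 0.51. Gapdh and Pgk1 are common reference genes, and 2 others, Actb and Tbp, had log2 ratios of -0.90 and 0.40. Mitochondrial genes differed much less. Of 74 genes of oxidative phosphorylation 20 were lower, 6 relative to the median gene, and 0 higher (0), with a median of -0.76. Lower calls were no more common there than among all genes (28.3%, or 13.2% relative to the median gene). Of 25 genes of the tricarboxylic acid cycle 3 were lower (1) and 3 higher (4), with a median of -0.45. In this cycle list, Pck2, the mitochondrial carboxykinase, had 596 and 101. Slc2a1, Ldha and Slc16a1 were named after their values were seen.

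The hypoxia-inducible factor binds ACGTG or GCGTG, which were searched on both strands in the RefSeq promoters of build GRCm38.p6, 250 bases before to 50 after the gene start, with the first promoter listed for a gene. Of 57 hypoxia-induced genes with values, 49 had a promoter and 39 of these (79.6%) held the motif, against 58.1% of 10877 promoters of all genes with a value on both arrays. Among members at 25 or more, 23 of 34 with the motif and 8 of 10 without it were at least 2-fold lower, so genes of both kinds were mostly lower. The 250 bases upstream of the start are shown for 3 genes far lower in the control shRNA culture, with each match in capitals. A match is a description and not a site shown to be bound. The windows are chr4:43506776-43507025 on the plus strand for Car9, chr11:120948817-120949066 on the plus strand for Slc16a3, and chr8:45999851-46000100 on the minus strand for Ankrd37.
Car9: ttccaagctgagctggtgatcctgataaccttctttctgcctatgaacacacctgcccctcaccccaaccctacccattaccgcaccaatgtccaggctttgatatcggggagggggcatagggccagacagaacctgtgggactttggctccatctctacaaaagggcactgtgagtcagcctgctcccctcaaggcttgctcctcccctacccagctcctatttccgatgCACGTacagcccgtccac
Slc16a3: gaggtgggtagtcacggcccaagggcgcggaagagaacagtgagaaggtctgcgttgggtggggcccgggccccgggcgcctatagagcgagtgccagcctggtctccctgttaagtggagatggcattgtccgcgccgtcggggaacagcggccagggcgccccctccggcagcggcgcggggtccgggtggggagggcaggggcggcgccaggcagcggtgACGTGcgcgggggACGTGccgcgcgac
Ankrd37: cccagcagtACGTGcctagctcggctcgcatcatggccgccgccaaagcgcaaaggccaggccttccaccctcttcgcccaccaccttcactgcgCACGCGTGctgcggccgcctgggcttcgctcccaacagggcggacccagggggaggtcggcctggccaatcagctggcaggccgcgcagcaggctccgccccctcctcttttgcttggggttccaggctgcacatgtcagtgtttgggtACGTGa
The match in Car9 starts 18 bases before the gene start, those in Slc16a3 start 27 and 14 bases before it, and Ankrd37 has 4 matches, of which those at 155 and 152 bases overlap.

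Lipid synthesis showed no common direction. Of 19 cholesterol synthesis genes 8 were lower (5 relative to the median gene) and 0 higher (2), with a median of -0.60, and of 32 genes of fatty acid synthesis and oxidation 11 were lower (6) and 5 higher (5), with a median of -0.48, close to that of all genes. Scd1, the desaturase that makes oleate, gave an intensity of 128 in the control shRNA culture and 1197 in the untreated control culture, and Tm7sf2, a sterol reductase, had 160.2 and 991. At the other end were Pparg, the nuclear receptor for fatty acids, with 626 and 99.03, and Acaa1b, a peroxisomal thiolase, with 238 and 13.1.

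Squamous-like genes had one of the higher list medians, below those of the amino acid response and cytochrome P450 lists. Of 25 members at 25 or more, 13 were at least 2-fold higher in the control shRNA culture (14 relative to the median gene) and 3 lower (1), and the median was 0.43 over the 44 members with a value on both arrays. Sprr2b, a proline-rich protein of the cornified envelope, was among the brightest genes of the array, with an intensity of 29654 in the control shRNA culture and 1306 in the untreated control culture. It had 30292 with Dnmt1 knockdown and 12841 with 5-Aza-CdR, so the untreated control culture stood apart from the other 3. Ly6d, a surface protein of keratinocytes, had 11963 and 157 on the control arrays, a log2 ratio of 6.25. Mal, a protein of apical transport in stratified epithelium, had 707 and 20.4, and Emp1, an epithelial membrane protein, 307 and 29.7. S100a9, a calcium-binding protein of neutrophils and stressed epithelium, and AI987692 (Gsdmc2), a gasdermin, had 35.7 and 54.9 in the control shRNA culture and lay within the spots without a probe in the untreated control culture, which makes them at least 14.8-fold and 22.7-fold higher. Among the 13 higher members, Ivl, Tgm1, Mal, S100a9, AI987692 and 9930109F21Rik (Gsdmc3) reached 25 only on the control shRNA array. The members did not all go one way. Gsdm1 (Gsdma), another gasdermin, had 26.1 and 821, and Sprr1a, the close relative of Sprr2b, had 179 and 189. Krt14, a keratin of basal squamous cells, stayed under 25 on both arrays, with 20.5 and 23.1. The keratins Krt13 and Krt15 of the list were dim too, with 4.66 and 5.49 and with 20.8 and 23.9. Trp63, another member, had no value on either control array. Sprr2b belongs to a family of near-identical genes that one probe may not tell apart. Emp1, Sprr1a, Krt13, Krt14, Krt15, Trp63, Ivl, Tgm1 and 9930109F21Rik were named after their values were seen.

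Gastric-type genes and genes of regenerating or fetal-type epithelium were mixed. Of 10 gastric-type genes at 25 or more 6 were higher and 2 lower (6 and 2 relative to the median gene), but the median over all 18 with values was -0.18. Among the 6, Tff1, Psca, Anxa10 and Vsig1 reached 25 only on the control shRNA array. Tff2, the trefoil peptide of gastric neck cells, gave an intensity of 1107 in the control shRNA culture and 36.9 in the untreated control culture, and Psca, a surface antigen of the stomach lining, had 101 and 10.6. Tff1, the trefoil peptide of gastric pit cells, had 213 and 15.7, with a direction that turned when the local background was subtracted. Agr2, a disulfide isomerase that stomach and gut mucous cells need, went the other way, with 282 and 1032. Of 30 regenerative and fetal-type genes, 13 were higher (14 relative to the median gene) and 6 lower (4), with a list median of 0.35. Among the 13, Anxa8, Anxa10, Ankrd1, Il1rn, Gja1, Itgb6 and Vsig1 reached 25 only on the control shRNA array. Il1rn, the interleukin-1 receptor antagonist, had 391 and 11.9. The annexins Anxa8 and Anxa3 had 441 and 23.4, and 1992 and 199. Gja1, connexin 43, had 280 and 2, which is at least 116-fold higher, but it also turned direction with the local background subtracted. Clu, which marks revival stem cells in mouse gut, had 2860 and 3258, and Anxa1 1379 and 1075, both near the median gene or a little above it. Reg3g, given above, and 9230117N10Rik (Il33), an alarmin, were lower in the control shRNA culture, Il33 with 102 and 942. Agr2, Clu, Anxa1 and Ankrd1 were named after their values were seen.

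Absorptive enterocyte genes gave 6 higher and 3 lower of 17 at 25 or more (7 and 2 relative to the median gene), and a list median of -0.16. Among the 6, Car1, Mep1b and 9030623C06Rik reached 25 only on the control shRNA array. Fabp1 and Fabp2, the fatty acid carriers of enterocytes, gave intensities of 995 and 483 in the control shRNA culture and of 83.7 and 30.3 in the untreated control culture. Car1, carbonic anhydrase I, had 419 and 15.55, and Mep1b, a brush border protease, had 89.2 and 19.8. The 2 array names that now stand for the keratin Krt20 disagreed, with log2 ratios of 4.83 for 9030623C06Rik and 0.78 for Krt21, and the first turned direction with the local background subtracted. Anpep, a brush border peptidase, was lower, with 69.0 and 265. Lactase (Lct) and Apoa4, genes of mature villus cells, were near background on both arrays, with 3.85 and 7.48 and with 1.06 and 2.75. Krt21, Lct and Apoa4 were named after their values were seen.

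**Figure D3:**
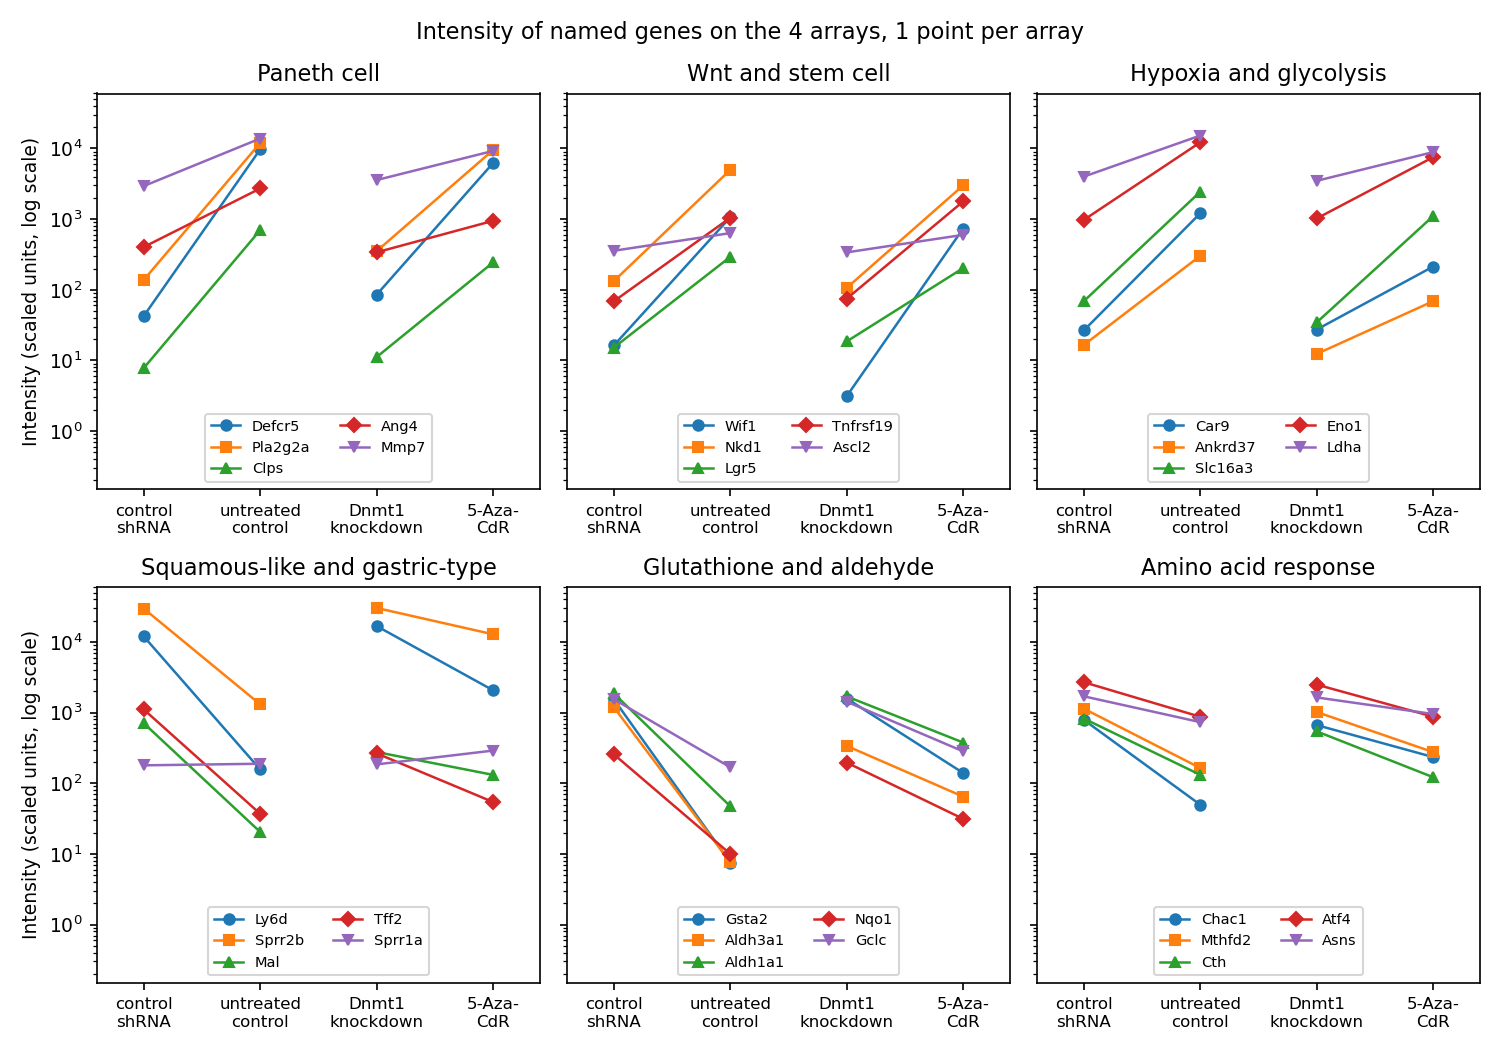
Intensity (y axis, log scale, scaled units) of 5 genes in each of 6 groups on the 4 arrays (x axis), 1 point per array, with lines joining the arrays of a day 9 and day 4 pair. Paneth, Wnt and hypoxia genes are lower in control shRNA than in untreated control and lower in Dnmt1 knockdown than in 5-Aza-CdR, and the groups of the lower row run the other way except Sprr1a.

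Enzymes that detoxify aldehydes, electrophiles and foreign compounds included some of the largest positive log2 ratios. Of 43 genes of the aldehyde dehydrogenase and glutathione list, 16 were at least 2-fold higher in the control shRNA culture (18 relative to the median gene) and 10 lower (6), and the median was 0.13, against -0.49 over all genes. Gsta2, a glutathione transferase, gave an intensity of 1544 in the control shRNA culture and 7.55 in the untreated control culture, and Aldh3a1, an aldehyde dehydrogenase, had 1194 and 7.62. The values in the untreated control culture lay just above the 99th percentile of spots without a probe there (6.03), so these folds are imprecise. Both genes were also high with Dnmt1 knockdown, at 1583 and 338, and in between with 5-Aza-CdR, at 139.95 and 64.7. Aldh1a1, which makes retinoic acid, had 1868 and 47.3 on the control arrays. Nqo1, a quinone reductase and the standard NRF2 target, had 257 and 10.01, the carbonyl reductase Cbr3 had 554 and 23.4, and Slc7a11, the cystine importer, had 62.1 and 4.88. Gclc and Gclm, the subunits of the enzyme that limits glutathione synthesis, had 1547 and 169, and 1371 and 410.1. Srxn1, sulfiredoxin, another NRF2 target, had 158 and 86.1, a log2 ratio of 0.87, or 1.41 relative to the median gene. Txnrd1, thioredoxin reductase, had 844 and 1129.9, near the median gene. Members that differed the other way were Gstm5, with 460 and 4332, and Aldh1l1, a folate enzyme, with 8.60 and 129. The motif TGACNNNGC, which NRF2 complexes bind, was found on either strand in 8 of 38 promoters of the list (21.1%), against 14.4% of all. Among members at 25 or more, 2 of 8 with it were higher and 3 lower, and of 28 without it 10 were higher and 6 lower. Gclc, Gclm, Txnrd1, Srxn1 and Gstm5 were named, and this motif was chosen, after the values were seen.

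Among 28 genes of the cytochrome P450, sulfotransferase and carboxylesterase list, which also holds glucuronosyltransferases and drug pumps, 14 were higher (19 relative to the median gene) and 5 lower (2), with a list median of 0.84. Cyp1b1, an aryl hydrocarbon receptor target, gave an intensity of 1455 in the control shRNA culture and 32.4 in the untreated control culture. Sult1c2, a sulfotransferase, had 128 and 4.95, Cyp3a13 had 183 and 18.7, and the drug efflux pump Abcb1a had 116 and 37.1. Ugt1a6a had 519 and 22.1, with a direction that turned with the local background subtracted. Its first exon is its own and the rest is shared within the Ugt1a cluster, so the probe may read the cluster. AU018778 (Ces1f), a carboxylesterase, had 335 in the control shRNA culture and no value in the untreated control culture. Abcb1a and AU018778 were named after their values were seen.

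Genes of the amino acid response stood together. Of 29 members at 25 or more, 16 were at least 2-fold higher in the control shRNA culture (19 relative to the median gene) and 3 lower (1), with a median of 1.21, the highest of any list over all members with a value on both arrays. Chac1, which breaks down glutathione and is a sensitive target of ATF4, gave an intensity of 789.55 in the control shRNA culture and 49.65 in the untreated control culture. Mthfd2, a mitochondrial folate enzyme, had 1137 and 164, Cth, which makes cysteine, had 824 and 132, and Trib3, a pseudokinase that dampens the response, had 139.58 and 23.8. Atf4 itself had 2695 and 873, and Ddit3 (CHOP) 403 and 91.2. Asns, asparagine synthetase, had 1701 and 733, and Psat1, of serine synthesis, had 1361 and 426. With Dnmt1 knockdown and 5-Aza-CdR the same order held for Chac1, at 666 and 235, and for Mthfd2, at 1019.7 and 276. The 3 lower members were Atf3, a stress transcription factor, with 29.5 and 153, Cbs, of cysteine synthesis, with 25.3 and 69.8, and the amino acid transporter Slc1a4 with 194 and 399. Endoplasmic reticulum chaperones lay close to the median gene. Of 21 such genes 0 were higher and 6 lower, against 28.3% lower of all genes, and relative to the median gene 2 were higher and 2 lower. Hspa5 (BiP), its standard marker, had 3377 and 3636. Atf4, Ddit3, Asns, Psat1, Atf3, Cbs, Slc1a4 and Hspa5 were named after their values were seen.

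ATF4 with C/EBP partners binds TGATGNAA, and this motif, chosen after the values were seen, was searched in the same promoters on both strands. It was present in 10 of 26 promoters of the list (38.5%), against 2.53% of 10877 promoters, and the list holds genes picked for being ATF4 targets. Of the 9 members at 25 or more with the motif 6 were higher and 2 lower, and of 15 without it 8 were higher and 1 lower. The upstream 250 bases of Chac1 (chr2:119350992-119351241, plus strand) and Asns (chr6:7693210-7693459, minus strand) are shown because both were higher and both hold a match, in capitals.
Chac1: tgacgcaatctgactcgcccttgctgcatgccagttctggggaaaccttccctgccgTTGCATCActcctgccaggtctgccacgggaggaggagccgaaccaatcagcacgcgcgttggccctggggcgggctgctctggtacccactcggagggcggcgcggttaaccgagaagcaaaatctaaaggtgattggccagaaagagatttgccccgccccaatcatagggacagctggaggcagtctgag
Asns: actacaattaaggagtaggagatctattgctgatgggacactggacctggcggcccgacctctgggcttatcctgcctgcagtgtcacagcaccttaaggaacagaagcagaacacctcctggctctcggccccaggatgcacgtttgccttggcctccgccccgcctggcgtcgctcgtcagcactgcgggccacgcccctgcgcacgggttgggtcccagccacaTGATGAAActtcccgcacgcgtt
The match starts 193 bases before the gene start in Chac1 and 23 bases before it in Asns.

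Genes of antigen presentation were lower. Of 12 genes of MHC class I presentation 8 were lower (5 relative to the median gene) and 0 higher (0), with a list median of -1.27. Relative to all genes this median was -0.78, and it shrank to -0.12 with the local background subtracted. The immunoproteasome subunit Psmb8 gave an intensity of 5.04 in the control shRNA culture and 67.5 in the untreated control culture, and B2m, the class I light chain, had 1191 and 3312.5. Interferon-stimulated genes held 3 higher and 4 lower of 25, and relative to the median gene 8 higher and 1 lower, with a list median of 0.24. Oas1a, which makes an activator of RNase L, had 41.5 and 8.51, far below its 651 with Dnmt1 knockdown and 658 with 5-Aza-CdR. Of 50 genes of cell cycle and DNA replication 12 were lower (7 relative to the median gene) and 1, Kif23, was higher (2). Lower calls in this list were about as common as among all genes (28.3%, or 13.2% relative to the median gene). Mki67, which dividing cells express, had 111 and 328, and the list median was -0.81, or -0.32 relative to all genes. Of 23 p53 targets 3 were higher and 2 lower, and relative to the median gene 7 were higher and 0 lower, with a list median of 0.02. The cell cycle inhibitor Cdkn1a, a p53 target, had 212 and 502. The 51 cytosolic ribosomal protein genes at 25 or more held 1 higher and 4 lower (2 and 1 relative to the median gene), with a list median of -0.39. Chemokine and NF-kB targets split into 6 higher and 7 lower of 22 (6 and 6 relative to the median gene), with Cxcl5, a chemokine for neutrophils, at 69.8 and 4.47, and Lcn2, an iron-binding defense protein, at 23.5 and 135.

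Many of the most different genes belonged to no list. Vnn1, a pantetheinase that makes cysteamine, gave an intensity of 436 in the control shRNA culture and lay within the spots without a probe in the untreated control culture, at least 181-fold higher. It had 295 with Dnmt1 knockdown and 30.9 with 5-Aza-CdR. S100g, the vitamin D-dependent calcium carrier of enterocytes, had 403 and 16.1. On the lower side, the neuropeptide Npy had a value within the spots without a probe in the control shRNA culture and 798 in the untreated control culture, at least 237-fold apart, and it had no value with Dnmt1 knockdown and 1768 with 5-Aza-CdR. Cdkn1c, an imprinted cell cycle inhibitor, had 21.85 and 1798.5, Ptn, the growth factor pleiotrophin, had 7.45 and 515, Igfbp4, which binds insulin-like growth factors, had 23.8 and 1233, and Itm2a, a membrane protein, had 9.19 and 579.97. The metallothionein Mt4 had 5.38 and 269.96. Ptn and Igfbp4, like Vim, are also expressed by mesenchymal cells. The lower sum over the mesenchymal markers, given above, came mostly from Vim itself. The median of that list was -0.78, against -0.49 over all genes. The part of mesenchymal cells in these values was not tested. Beyond these, 130 genes had a value only in the control shRNA culture, of which 7 reached 25, and 1426 only in the untreated control culture, of which 21 did. The brightest gene with a value only in the untreated control culture was Gss, glutathione synthetase, with 490.1. It had no value in the control shRNA culture but 660.3 with Dnmt1 knockdown and 555 with 5-Aza-CdR. The cause of the missing value was not tested. Gss was named after its value was seen.

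The Dnmt1 knockdown and 5-Aza-CdR arrays, which share no array with the controls, were set against each other in the same way, day 9 with vector and selection over day 4. They differ in the inhibition of DNA methylation as well, and they share with the controls the culture time and the vector, so they are not a replicate. The floor of 25 stayed on the brighter control array, so genes bright only in this pair were left out. Of the 8493 genes that reached it and had 4 values, 475 (5.59%) were higher by 2-fold or more with Dnmt1 knockdown than with 5-Aza-CdR. Lower by as much were 2592 (30.5%). Across genes, which are not independent of each other, the correlation between both sets of log2 ratios was 0.87 (Pearson) and 0.85 (Spearman). Of 646 genes higher in the control shRNA culture with 4 values, 400 were at least 2-fold higher in this pair too and 8 at least 2-fold lower. Of 2397 lower genes, 1909 were lower in this pair and 4 higher. All 4 arrays separated by at least 2-fold, both day 9 arrays on one side of both day 4 arrays, for 346 of the higher genes (53.6%) and 1609 of the lower genes (67.1%). Of the 8493 genes, 1909 were at least 2-fold lower in both pairs and 400 at least 2-fold higher. By list, 12 of 17 Paneth cell genes and 19 of 42 Wnt and stem cell genes were at least 2-fold lower in both pairs. So were 27 of 50 hypoxia genes and 20 of 28 glycolysis genes. Higher by 2-fold or more in each pair were 14 of 43 genes of the aldehyde and glutathione list. So were 10 of 25 squamous-like genes and 11 of 29 amino acid response genes. The other way, 7 genes of the aldehyde and glutathione list, 2 squamous-like genes and 1 amino acid response gene were lower in each. Higher in each were 1 Paneth cell gene, 2 Wnt and stem cell genes, 2 hypoxia genes and 0 glycolysis genes. Of 30 genes of the regenerative list, 6 were lower and 6 higher in each. The differences were often smaller in this pair where 5-Aza-CdR lay between the controls. Ly6d had log2 ratios of 6.25 between the controls and 3.02 in this pair, Gsta2 had 7.68 and 3.50, and Car9 had -5.51 and -2.96, while Wif1 had -6.03 and -7.89.

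**Figure D4:**
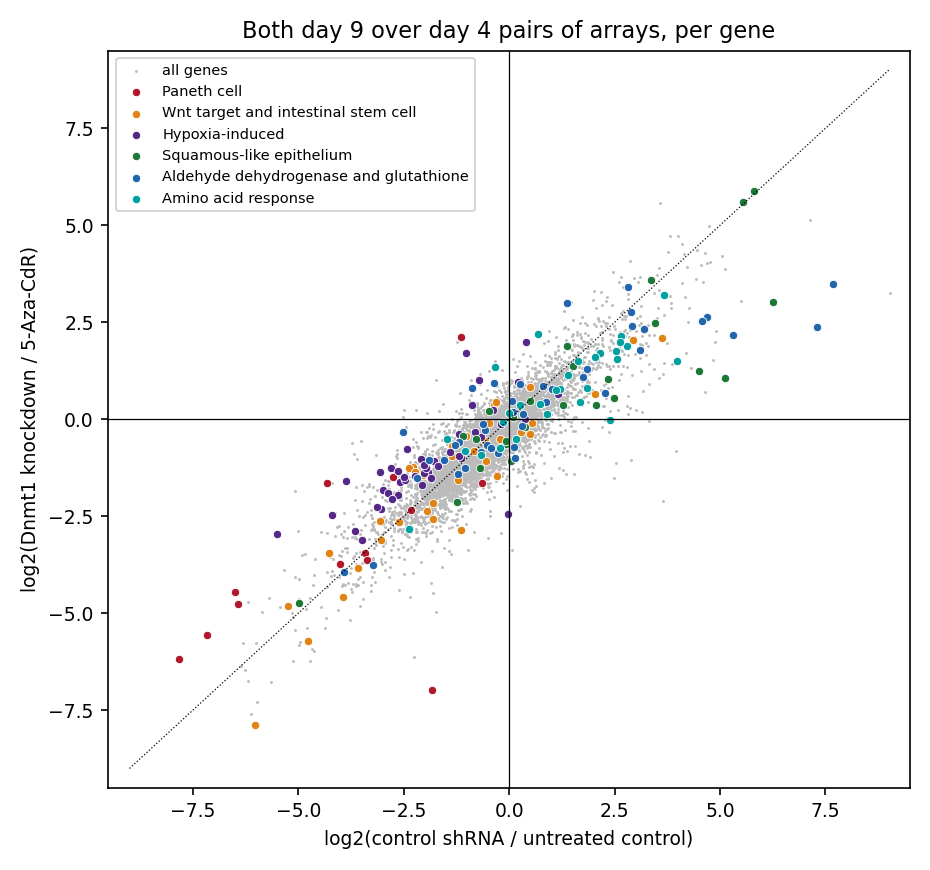
Log2 ratio of Dnmt1 knockdown over 5-Aza-CdR (y axis) against log2 ratio of control shRNA over untreated control (x axis), 1 point per gene at 25 or more on the brighter control array, with 6 gene lists in color. Points follow the dotted line of equal ratios (r = 0.87 across genes), with several glutathione and squamous-like genes below it on the right.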

How the data were processed

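RNA of 4 organoid cultures was amplified, labelled with Cy5 and hybridized to 1 Toray array each. The RNA kit was mirVana in the study's methods and an RNeasy kit per the labels. The intensity values deposited by the authors equal, for nearly all probes, a factor (0.718 for the control shRNA array and 0.829 for the untreated control array) times the spot signal minus the trimmed mean of 2736 blank spots, within 1%. Values near the blank level were left empty. Precision is limited by the number of arrays, 1 per group. Symbols came from the platform annotation, 16631 of 23473 probes had 1 symbol, and 16443 of 16446 symbols matched RefSeq (GRCm38.p6). The brightest probe stood for a gene. The ratio was log2 of the control shRNA intensity over the untreated control intensity. Lists took a gene whose old name stands for several genes only where all are members. List medians cover members with values on both arrays and counts those at 25 or more. Genes were named by rule: the 20 highest and 20 lowest log2 ratios at 100 or more, up to 6 members per list with the largest ratios, and 15 fixed genes. Others are said to be named after their values were seen. Members and the 34 lists were chosen with earlier results of these data known. Where the dimmer value lay below the 95th percentile of 1102 spots without a probe, the fold is a bound against that percentile. Spot signals were also corrected by normexp and quantile normalized with limma 3.58.1 in R 4.3.3. Python 3.11.15, numpy 2.4.6, pandas 2.3.3 and matplotlib 3.10.9 did the rest, and counting was tested on simulated data. Other experiments of the study were not used here.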

Additional observations from a re-analysis of the deposited data

How the results depend on the processing

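No paired analysis was possible because each group held 1 array, and for the same reason no replicate could be left out. The 647 higher and 2405 lower genes became 569 and 575 with normexp at offset 50 and quantile normalization over 4 arrays, 855 and 914 at offset 16, 541 and 543 over 2 arrays and 501 and 570 with the local background subtracted. They became 1194 and 1119 when centred on the median, 1099 and 1207 at equal 75th percentiles, 325 and 1512 with a floor of 100, 1021 and 4063 at 1.5-fold, 347 and 1043 at 3-fold, and 236 and 606 at 4-fold. Without a floor they were 981 and 3463. Relative to all genes, the Paneth cell median became -1.56 with normexp at offset 50 over 4 arrays, the squamous-like median 0.18 with the local background subtracted and 1.81 over members at 25 or more, and the hypoxia median -0.44 with the local background subtracted and -0.39 without glycolysis members, a setting chosen after seeing the data. With the local background subtracted, the endothelial median turned to 0.003, the relative medians of the tuft cell (0.06), matrix adhesion (0.06), ribosomal (-0.10) and fatty acid (-0.0082) lists also changed sign, and 13 named genes turned direction: 9030623C06Rik (-0.10), Calr (0.048), Esam1 (0.0214), Foxa3 (0.26), Gja1 (-0.23), Itgb5 (0.0699), Phlda3 (0.16), Plcg2 (0.13), Ptgs1 (-0.17), Rpl28 (0.12), Sec61b (0.37), Tff1 (-0.0932) and Ugt1a6a (-0.0629). The local background rose with the signal of the spot (correlation on the log scale 0.96 on the control shRNA array and 0.83 on the untreated control array). Of 208 named genes, 146 moved in size but not in direction with normexp at offset 50 over 4 arrays, and 102 did at offset 16. With the local background subtracted, 156 did so besides the 13 that turned. The cause of these moves was not tested. The medians relative to all genes kept their sign under 8 alternatives in 27 of 34 lists. Centring on the median and equal 75th percentiles shift every gene alike, so these alternatives could not change such a median. Taking the median over the probes of a gene could change little, since 123 genes had several probes with values.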
